A study of Homo sapiens with 9 samples.

Results

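The receptors of the epidermal growth factor (EGF) and the growth factors that bind them were examined in MDA-MB-231 cells, a mesenchymal-like line of triple negative breast cancer. The 10 genes were chosen by name, with earlier results of these data known. They were the receptors *EGFR*, *ERBB2* and *ERBB3* and the ligands *AREG*, *EREG*, *HBEGF*, *TGFA*, *NRG1*, *BTC* and *EPGN*. Of these, 8 had a transcript cluster annotated with their symbol alone (2 receptors and 6 ligands), out of 22465 genes measured in this way. Where a gene had several such clusters, that with the highest mean over the 9 arrays was taken. *ERBB2* was covered only by a cluster that also carried *MIR4728*, a microRNA gene inside it, and was kept apart. *AREG* was not analysed here.

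The study compared a control culture (LUC, carrying a short hairpin RNA (shRNA) against firefly luciferase) with a culture in which *ELOVL5*, an elongase of polyunsaturated fatty acids, was knocked down and with another in which *IGFBP6*, which encodes a secreted binder of insulin-like growth factors, was knocked down. All 3 cultures carried the lentiviral pLVX shRNA1 vector and were selected with puromycin. Each knockdown was 1 stable culture, taken because its target mRNA was lowered the most, and 3 RNA samples of each culture were measured on 1 array each. The p-values therefore measure the spread between RNA samples of a culture and not between independent knockdowns.

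The ligands of this family are made as membrane-anchored precursors. Metalloproteinases of the ADAM family cut them free, and the released ligand brings receptors together in pairs that phosphorylate each other. EGFR binds the EGF-like ligands, the kinase-impaired ERBB3 binds neuregulins and signals through a partner, and ERBB2 has no known ligand of its own and serves as that partner. The signal runs through adaptors, RAS and the ERK kinases to early response genes, some of which encode proteins that shut the pathway down again. In breast cancer ERBB2 is the target of antibodies, and EGFR is often abundant in triple negative tumours.

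The values are log2 intensities, so that a difference of 1 is a doubling, and all 9 arrays were fitted together with limma. A gene was called changed at an adjusted p under 0.05 and a difference of at least 1.5 times. The array medians lay between 4.95 and 5.10. *ELOVL5* mRNA fell by 1.66 on the log2 scale in its knockdown (3.15 times, adjusted p = 8.71e-05). *IGFBP6* mRNA was 6.12 ± 0.09 (SD, n = 3) in LUC and 5.50 ± 0.18 in its knockdown, a fall of 1.54 times (adjusted p = 0.00183) that was below 1.5 times without LUC replicate 2 or IGFBP6 replicate 2 (log2 differences -0.58 and -0.52). The level in the knockdown was close to the median of all values, 5.02, where a larger fall could not be told apart from array background. Of the 5 breast epithelial markers, *KRT8*, *CDH1* and *KRT19* fell with *IGFBP6* knocked down (*KRT19* by less than 1.5 times without IGFBP6 replicate 1, log2 difference -0.53). *CDH1* lay near the median of all values, at 5.93 in LUC and 5.16 in IGFBP6. *KRT18* (-0.26, adjusted p = 0.116) and *EPCAM* (0.06, adjusted p = 0.78) were not called. The mean of the list was 10.02 to 10.25 in LUC arrays, 9.86 to 10.01 in ELOVL5 arrays and 9.46 to 9.66 in IGFBP6 arrays. The 4 mesenchymal markers were mixed. *CD44* (-0.67) and *AXL* (-0.62) fell, *AXL* by less than 1.5 times without LUC replicate 3 or IGFBP6 replicate 1 (-0.54 and -0.53) while *CD44* was at -0.47 and not called as the mean of its clusters (adjusted p = 0.136), and *VIM* and *SPARC* differed by 0.31 and 0.46 (adjusted p = 0.0396 and 0.00219), below 1.5 times. The part of these differences in the values below was not tested. The mean level in each group was under 6 for all 4 fibroblast, 3 leukocyte and 3 endothelial markers (*PTPRC*, of leukocytes, fell by 0.77 on the log2 scale at this level), as for the hormone receptor genes *ESR1* and *PGR*.

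With *IGFBP6* knocked down, *EGFR* and the ligand gene *EREG* rose, and the ligand genes *TGFA* and *NRG1* fell. These 4 of the 8 genes, 2 higher and 2 lower, were called against LUC, where 16.3% of all genes were called (7.82% higher and 8.49% lower). After the knockdown of *ELOVL5*, 0 of the 8 were called by limma (3 had an unadjusted p under 0.05), where 1.36% of all genes were called (0.672% higher and 0.69% lower). The share of all genes with an unadjusted p under 0.05 was not computed. Counts at that threshold, here and below, thus have no background beside them. Between the knockdowns the same 4 genes were called in the same directions, where 13.1% of all genes were called (6.5% higher and 6.64% lower). At the adjusted p alone, 5 of the 8 genes passed in IGFBP6 minus LUC against 26.6% of all genes, 4 in IGFBP6 minus ELOVL5 against 22.7% and 0 in ELOVL5 minus LUC against 1.74%. The LUC arrays are shared by the comparisons with LUC, and those of each knockdown by the direct comparison, so that these counts are not independent. The median difference of the 8 genes was 0.02 for ELOVL5 minus LUC and 0.09 for IGFBP6 minus LUC, against -0.017 and -0.007 over all genes.

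The promoters of *EREG*, *TGFA* and *EGFR* are shown to set a ligand gene that rose beside one that fell and beside the receptor both ligands bind. Each window holds 300 bases of RefSeq (GRCh38.p14), 250 before the annotated start and 50 after it, read 5′ to 3′ on the strand of the gene. Capitals mark matches on either strand to the TATA box (TATAAA), the GC box (GGGCGG), the AP-1 element (TGANTCA) or the cAMP response element (TGACGTCA).
*EREG*, chr4:74364895-74365194, plus strand: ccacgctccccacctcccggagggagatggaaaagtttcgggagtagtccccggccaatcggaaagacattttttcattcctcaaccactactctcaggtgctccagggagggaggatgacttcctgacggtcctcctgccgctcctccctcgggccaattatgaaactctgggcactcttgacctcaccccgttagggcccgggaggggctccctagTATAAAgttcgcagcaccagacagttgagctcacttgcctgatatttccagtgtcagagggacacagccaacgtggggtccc
*TGFA*, chr2:70553777-70554076, minus strand: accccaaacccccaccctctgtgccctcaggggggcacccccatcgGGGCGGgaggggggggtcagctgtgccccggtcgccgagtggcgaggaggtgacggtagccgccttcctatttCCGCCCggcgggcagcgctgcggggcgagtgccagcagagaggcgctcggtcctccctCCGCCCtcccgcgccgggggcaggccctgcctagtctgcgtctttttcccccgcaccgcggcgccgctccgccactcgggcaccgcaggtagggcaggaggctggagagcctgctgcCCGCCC
*EGFR*, chr7:55018767-55019066, plus strand: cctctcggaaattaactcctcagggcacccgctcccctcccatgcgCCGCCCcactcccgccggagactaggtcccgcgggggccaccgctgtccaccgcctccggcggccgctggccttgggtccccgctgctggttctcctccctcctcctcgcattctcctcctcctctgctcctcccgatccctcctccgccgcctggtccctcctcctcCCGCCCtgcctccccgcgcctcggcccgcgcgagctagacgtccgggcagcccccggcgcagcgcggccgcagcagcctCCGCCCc

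The *EREG* window held 1 TATA box, 32 bases before the start, and none of the other 3 motifs, and its GC content was 57.7%. The *TGFA* window held 4 GC boxes and the *EGFR* window 3, each with a GC content of 75.3%. Among 35116 RefSeq promoters of this length, 11.5% held a TATA box, 45% a GC box, 7.71% an AP-1 element and 1.85% a cAMP response element, and the median GC content was 58.7%. A second start of *EGFR*, chr7:55109589-55109888, held 2 AP-1 elements and 2 TATA boxes at a GC content of 42%, whereas a second start of *TGFA*, chr2:70553397-70553696, held none of the 4 motifs. The *HBEGF* window held 5 GC boxes, that of *BTC* 1, that of *EPGN* 1 TATA box and that of *ERBB2* 1 AP-1 element. The arrays measured each gene as a whole and do not tell which start was used, and a match of letters is not evidence that a factor was bound.

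*EGFR* encodes the receptor shared by most ligands of the family. Its level was 12.55, 12.59 and 12.67 in the LUC arrays, 12.76, 12.44 and 12.49 in the ELOVL5 arrays and 13.31, 13.46 and 13.45 in the IGFBP6 arrays. All 3 IGFBP6 arrays lay above the other 6, and the ELOVL5 arrays spanned those of LUC. *EGFR* mRNA rose 1.75 times with *IGFBP6* knocked down (log2 difference 0.80, 95% confidence interval 0.57 to 1.03, adjusted p = 0.000331). It was 1.79 times as high as after the knockdown of *ELOVL5* (0.84, adjusted p = 0.000349). For ELOVL5 minus LUC the difference was -0.04 with an interval of -0.27 to 0.19, within 1.5 times in either direction.

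*ERBB3* encodes the receptor that binds neuregulins and has an impaired kinase. Its level was 5.78, 6.12 and 5.88 in LUC, 5.90, 6.05 and 6.04 in ELOVL5 and 6.18, 6.53 and 6.48 in IGFBP6 arrays. The IGFBP6 arrays were again all above the others, but the lowest of them was only just above the highest LUC array. The log2 difference of 0.47 against LUC (1.39 times, interval 0.20 to 0.74) had an adjusted p of 0.0232 and stayed below 1.5 times, so that it was not called. For ELOVL5 minus LUC it was 0.07 (interval -0.20 to 0.34), and between the knockdowns 0.40 (adjusted p = 0.054). The cluster shared by *ERBB2* and *MIR4728* lay between 6.89 and 7.04 in LUC, 6.97 and 7.03 in ELOVL5 and 6.78 and 7.13 in IGFBP6 arrays, which overlapped, and passed the test in none of the 3 comparisons (adjusted p = 0.922, 0.879 and 0.948).

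**Figure D1:**
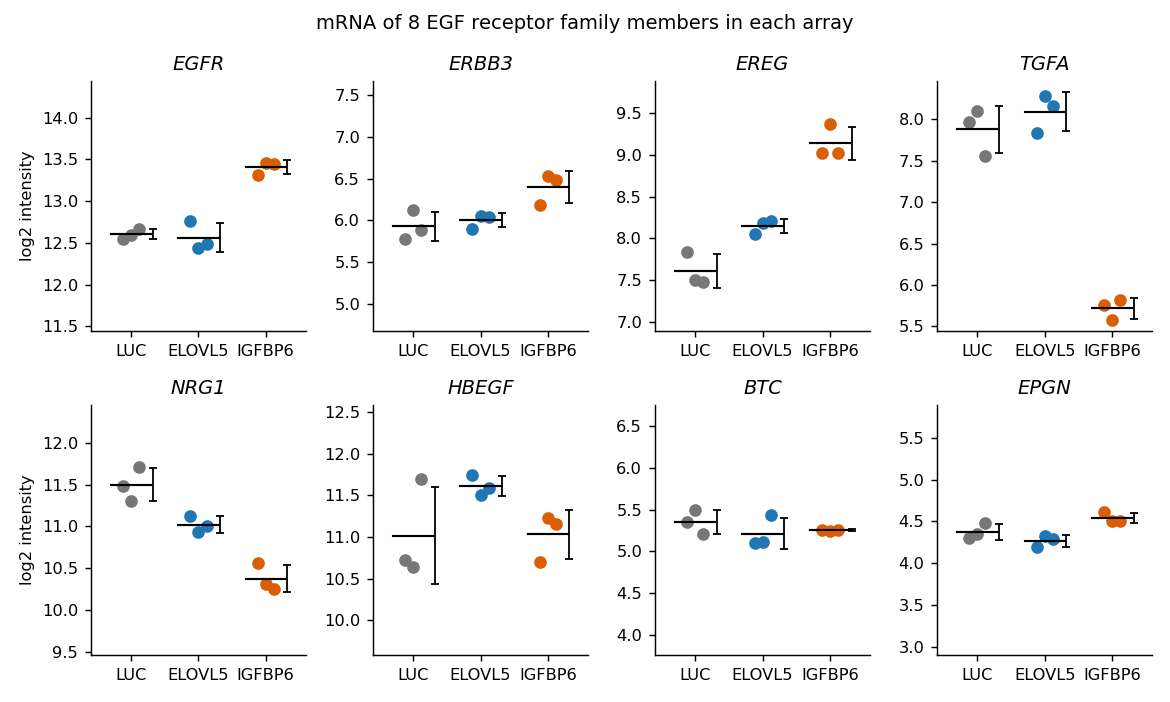
Log2 intensity (vertical axis, each panel spanning at least 3 units with its own origin) of the 8 measured genes in the 3 arrays each of LUC, ELOVL5 and IGFBP6. Points are arrays, horizontal lines are group means and bars are 1 SD. The IGFBP6 points of *EGFR* and *EREG* lie above, and those of *TGFA* and *NRG1* below, all other arrays, and 1 LUC point of *HBEGF* (11.69) stands among the ELOVL5 points.

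*TGFA* encodes transforming growth factor alpha, an autocrine ligand of EGFR in many carcinomas, and showed the widest range of group means among the 8 genes. Its level was 7.97, 8.10 and 7.56 in the LUC arrays, 7.83, 8.28 and 8.16 in the ELOVL5 arrays and 5.76, 5.58 and 5.82 in the IGFBP6 arrays. The IGFBP6 arrays stood well below the other 6, which overlapped each other. *TGFA* mRNA fell 4.46 times with *IGFBP6* knocked down (log2 difference -2.16, interval -2.51 to -1.80, adjusted p = 7.84e-06) and was 5.17 times lower than after the knockdown of *ELOVL5* (-2.37, adjusted p = 9.07e-06). The remaining level of 5.72 was close to the median of all values, 5.02, where a larger fall could not be told apart from array background. For ELOVL5 minus LUC the log2 difference was 0.21 (interval -0.14 to 0.57). In RNA from a whole culture, fewer cells with a transcript and less of it per cell cannot be told apart.

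*EREG* encodes epiregulin, a ligand of EGFR and ERBB4, and moved in the opposite direction. It measured 7.84, 7.50 and 7.48 in LUC, 8.05, 8.19 and 8.21 in ELOVL5 and 9.03, 9.37 and 9.02 in IGFBP6 arrays. The 3 groups did not overlap, with ELOVL5 between LUC and IGFBP6. *EREG* mRNA rose 2.89 times with *IGFBP6* knocked down (log2 difference 1.53, interval 1.24 to 1.82, adjusted p = 2.01e-05) and was 1.99 times as high as after the knockdown of *ELOVL5* (0.99, adjusted p = 0.000555). The difference between ELOVL5 and LUC, 0.54 (1.46 times, interval 0.25 to 0.83), did not pass the test (adjusted p = 0.0946). It passed with array weights (adjusted p = 0.0219) and with adjustment over 1 cluster per gene (adjusted p = 0.0439), but stayed below 1.5 times in both. Of all genes, 23.7% had ELOVL5 and LUC arrays that did not overlap, 37.7% IGFBP6 and LUC arrays, and 39.8% arrays of the knockdowns. Of the 8 genes, these numbered 2 (*EREG* and *NRG1*), 6 (all but *HBEGF* and *BTC*) and 7 (all but *BTC*).

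*NRG1* encodes neuregulin 1, a ligand of ERBB3 and ERBB4. Its level was 11.48, 11.31 and 11.71 in LUC, 11.13, 10.93 and 11.00 in ELOVL5 and 10.56, 10.31 and 10.25 in IGFBP6 arrays. The groups again fell in 3 separate ranges, here with LUC the highest. *NRG1* mRNA fell 2.18 times with *IGFBP6* knocked down (log2 difference -1.13, interval -1.40 to -0.85, adjusted p = 0.000123) and was 1.57 times lower than after the knockdown of *ELOVL5* (-0.65, adjusted p = 0.00546). The difference of -0.48 between ELOVL5 and LUC (1.39 times, interval -0.76 to -0.20) did not pass the test (adjusted p = 0.127). It passed with array weights (adjusted p = 0.0344), but stayed below 1.5 times.

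A second transcript cluster of *NRG1* gave the same direction from other probes. It measured 8.69, 8.47 and 8.63 in LUC, 8.54, 7.45 and 8.03 in ELOVL5 and 7.36, 7.20 and 7.46 in IGFBP6 arrays. ELOVL5 replicate 2 was the lowest of its group and lay within the range of the IGFBP6 arrays, so that the knockdowns overlapped here. The IGFBP6 arrays lay wholly below LUC. This cluster fell 2.39 times with *IGFBP6* knocked down (adjusted p = 0.00249). Its difference of -0.67 between the knockdowns did not pass the test (adjusted p = 0.0737), and moved with single ELOVL5 arrays. It was -0.94 and called without ELOVL5 replicate 2 (adjusted p = 0.00493) and -0.40 without ELOVL5 replicate 1 (adjusted p = 0.199). It was also called without dim clusters (adjusted p = 0.04).

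*HBEGF* encodes heparin-binding EGF-like growth factor, a ligand of EGFR and ERBB4 whose precursor is the receptor of diphtheria toxin. It measured 10.72, 10.64 and 11.69 in LUC, 11.74, 11.50 and 11.59 in ELOVL5 and 10.70, 11.23 and 11.16 in IGFBP6 arrays. LUC replicate 3 was about as high as the ELOVL5 arrays, while the other 2 LUC arrays were lower than all of them. The log2 difference of 0.59 for ELOVL5 minus LUC (1.51 times, interval 0.03 to 1.15) did not pass the test (adjusted p = 0.41). Without LUC replicate 3 it was 0.93 and was called (adjusted p = 0.0355), so that 1 control array decides this value. For IGFBP6 minus LUC it was 0.01 (interval -0.55 to 0.57), and between the knockdowns -0.58 (adjusted p = 0.176).

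*BTC*, which encodes betacellulin, and *EPGN*, which encodes epigen, both ligands of EGFR, were measured near the median of all values. *BTC* lay between 5.10 and 5.49 on the 9 arrays, with differences of -0.14, -0.10 and 0.04 in the 3 comparisons (adjusted p = 0.756, 0.682 and 0.879). *EPGN* lay between 4.19 and 4.61. Its differences were -0.11 for ELOVL5 minus LUC, 0.16 for IGFBP6 minus LUC and 0.27 between the knockdowns (adjusted p = 0.754, 0.279 and 0.0665), and its 3 IGFBP6 arrays were the highest of the 9. At such levels a change was not detectable with certainty.

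**Figure D2:**
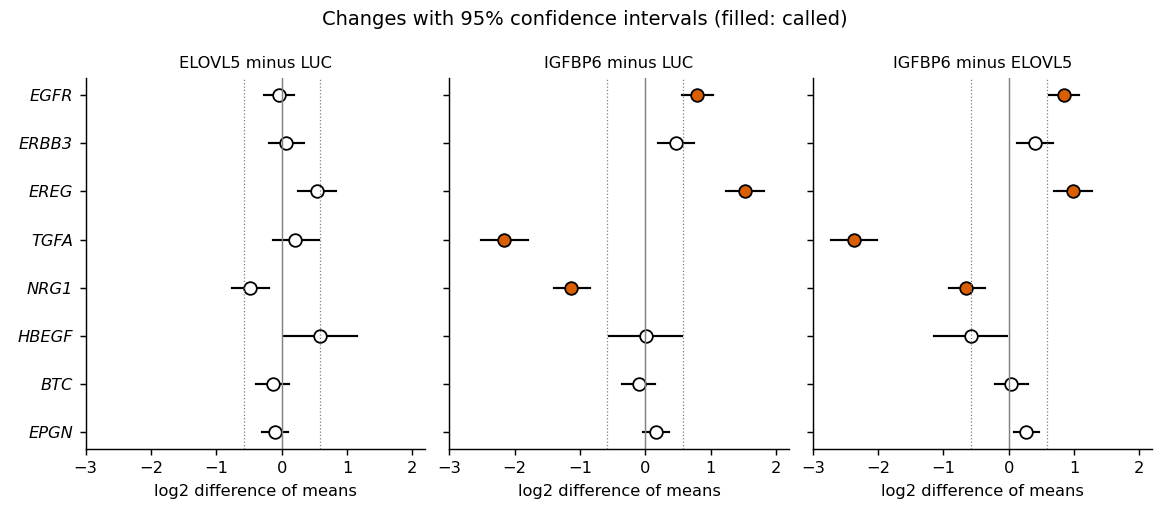
Differences of group means on the log2 scale (horizontal axis) with 95% confidence intervals from limma for the 8 genes in the 3 comparisons. Filled points were called, and dotted lines mark 1.5 times in either direction. In both comparisons with IGFBP6 arrays, *EGFR* and *EREG* are filled on the right and *TGFA* and *NRG1* on the left, and no point is filled for ELOVL5 minus LUC.

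The other receptor and ligands, *ERBB4*, *EGF*, *NRG2*, *NRG3* and *NRG4*, were measured at a mean of 4.84 to 5.06 per array and 0 of the 5 were called in any comparison (limma). *NRG2*, a neuregulin, was the 1 gene that had an unadjusted p under 0.05 in IGFBP6 minus LUC (log2 difference -0.25, adjusted p = 0.173) and in IGFBP6 minus ELOVL5 (-0.27, adjusted p = 0.145).

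Of the 10 measured genes of ligand release, 3 fell with *IGFBP6* knocked down and 0 rose, beside 8.49% and 7.82% of all genes. *ADAM10*, the protease that frees EGF and betacellulin, fell from 12.20 ± 0.16 to 10.59 ± 0.21 (SD, n = 3, 3.05 times, adjusted p = 9.91e-06). *ADAM9*, which can cut the HBEGF precursor, fell 1.85 times (adjusted p = 0.000795), and *TIMP3*, the inhibitor of ADAM17 and ADAM10, fell by 6.50 on the log2 scale. *ADAM17*, the main protease for the TGFA, HBEGF and epiregulin precursors, was 10.79 ± 0.18 in LUC and 11.32 ± 0.10 in IGFBP6, a difference of 1.44 times that was below the threshold (adjusted p = 0.0118) but was called without LUC replicate 2 or IGFBP6 replicate 1 (log2 differences 0.63 and 0.59). After the knockdown of *ELOVL5* 0 of the 10 were called (limma, 4 with an unadjusted p under 0.05), and *ADAM19*, a protease acting on neuregulins, came closest with a difference of 0.72 (adjusted p = 0.0543). *ADAM19* was called there under 6 alternatives, with adjusted p from 0.00906 (array weights) to 0.0383 (only the 2 groups compared), and among single arrays left out only without IGFBP6 replicate 1 (adjusted p = 0.0214). *ADAM19* was called lower in IGFBP6 than in ELOVL5 (-0.87, adjusted p = 0.00274), together with *TIMP3* and *ADAM10*. *CD9*, a tetraspanin bound to the HBEGF precursor, differed from LUC by -0.50 in ELOVL5 and -0.49 in IGFBP6 arrays, and neither was called, although the second was without IGFBP6 replicate 3 (-0.63, adjusted p = 0.00325).

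Among the 12 measured adaptors and kinases from GRB2 to ERK, 0 were called with *IGFBP6* knocked down, against LUC or against ELOVL5 (limma, 7 and 6 with an unadjusted p under 0.05). Of all genes, 16.3% and 13.1% were called in these 2 comparisons. *MAP2K1*, the kinase MEK1, rose 1.58 times after the knockdown of *ELOVL5* (log2 difference 0.66, adjusted p = 0.0395). This call was lost without any one of the LUC or ELOVL5 arrays or without IGFBP6 replicate 3 (adjusted p from 0.0576 to 0.149). The differences of *GAB2*, a docking protein (0.61), and *SOS2*, an exchange factor of RAS (-0.61), both passed 1.5 times in IGFBP6 minus LUC but not the test (adjusted p = 0.105 and 0.0671). There *MAP2K1* (0.52), *SHC1* (0.43) and *MAP2K2* (-0.39) passed the test (adjusted p = 0.0158, 0.0313 and 0.0105) but stayed below 1.5 times. In IGFBP6 minus ELOVL5 the same held for *MAP2K2* (-0.43, adjusted p = 0.00775) and *PTPN11* (-0.38, adjusted p = 0.03). *SOS2* was called without LUC replicate 1 or IGFBP6 replicate 3 (adjusted p = 0.0428 and 0.041) and *GAB2* without IGFBP6 replicate 1 (adjusted p = 0.00436), as was *MAP2K1* without LUC replicate 2 or IGFBP6 replicate 1 (adjusted p = 0.0172 and 0.00449). In IGFBP6 minus ELOVL5, *GAB2* (0.75, adjusted p = 0.0529) was called without LUC replicate 1 or IGFBP6 replicate 1 (adjusted p = 0.0434 and 0.0026).

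Of the 13 measured genes listed under receptor restraint, 1 rose and 4 fell with *IGFBP6* knocked down, beside 7.82% and 8.49% of all genes. After the knockdown of *ELOVL5* 0 were called (limma, 4 with an unadjusted p under 0.05). The list was made by name, with earlier results of these data known. Whether each gene, *LRIG2* and *LRIG3* among them, restrains the receptors in these cells was not tested. *RNF41*, a ubiquitin ligase that directs the breakdown of ERBB3, rose from 9.49 ± 0.15 to 10.93 ± 0.16 (2.70 times, adjusted p = 1.87e-05). The genes that fell were *LRIG3* (log2 difference -1.19) and *LRIG2* (-1.07) of a family of membrane proteins that bind growth factor receptors, *CBLB* (-1.01), a ubiquitin ligase of EGFR, and *PTPN12* (-0.81), a tyrosine phosphatase. The *RNF41* transcript and *ERBB3* were thus both highest in the IGFBP6 arrays. The same 5 genes were called in IGFBP6 minus ELOVL5. There *ERRFI1*, an inhibitor of the EGFR kinase, and *LRIG1*, which promotes receptor breakdown, were called lower as well (-0.91 and -0.74, adjusted p = 0.000128 and 0.000219). *ERRFI1* lay on opposite sides of LUC in the knockdowns, at 14.74 ± 0.08 in ELOVL5, 14.23 ± 0.10 in LUC and 13.83 ± 0.11 in IGFBP6 (SD, n = 3). Both differences from LUC, 0.52 and -0.39, passed the test (adjusted p = 0.0328 and 0.0156) but were below 1.5 times. In IGFBP6 minus LUC the same held for *LRIG1* (-0.52, adjusted p = 0.00157) and *SPRY2* (-0.31, adjusted p = 0.033).

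Of the 14 transcripts known to be induced by EGF, 2 rose and 4 fell with *IGFBP6* knocked down, beside 7.82% and 8.49% of all genes, and 0 were called after the knockdown of *ELOVL5* (limma, 4 with an unadjusted p under 0.05). *DUSP5* and *DUSP4*, which both encode phosphatases of ERK in the nucleus, moved apart: *DUSP5* rose 2.16 times (adjusted p = 0.0005) and *DUSP4* fell by 1.30 on the log2 scale (adjusted p = 2.25e-05). The transcription factor gene *ETV4* rose 1.88 times (adjusted p = 0.00129). The transcription factor gene *MYC* fell 2.39 times, the cyclin D1 gene *CCND1* 2.28 times and the early response gene *IER3* 2.10 times. The same 6 genes were called in IGFBP6 minus ELOVL5, where *DUSP5* (0.65, adjusted p = 0.0162) was no longer called without ELOVL5 replicate 2, ELOVL5 replicate 3 or IGFBP6 replicate 2 (adjusted p = 0.0617, 0.0645 and 0.0508). There *EGR1* was called higher without IGFBP6 replicate 1 (0.94, adjusted p = 0.0147) and *JUNB* lower without IGFBP6 replicate 2 (-0.90, adjusted p = 0.0103). In IGFBP6 minus LUC, 6 to 8 of the 14 were called with 1 array left out, and the gained calls were all higher. *FOSL1* was at 1.06 without LUC replicate 3 (adjusted p = 0.00265) and *EGR1* at 0.75 without IGFBP6 replicate 1 (adjusted p = 0.035). *SPRY4* was at 0.65 without LUC replicate 3 or IGFBP6 replicate 1 (adjusted p = 0.0217 and 0.0178). The median difference of the list in IGFBP6 minus LUC was 0.07, against -0.007 over all genes, that of ligand release -0.23 and that of receptor restraint -0.31.

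**Figure D3:**
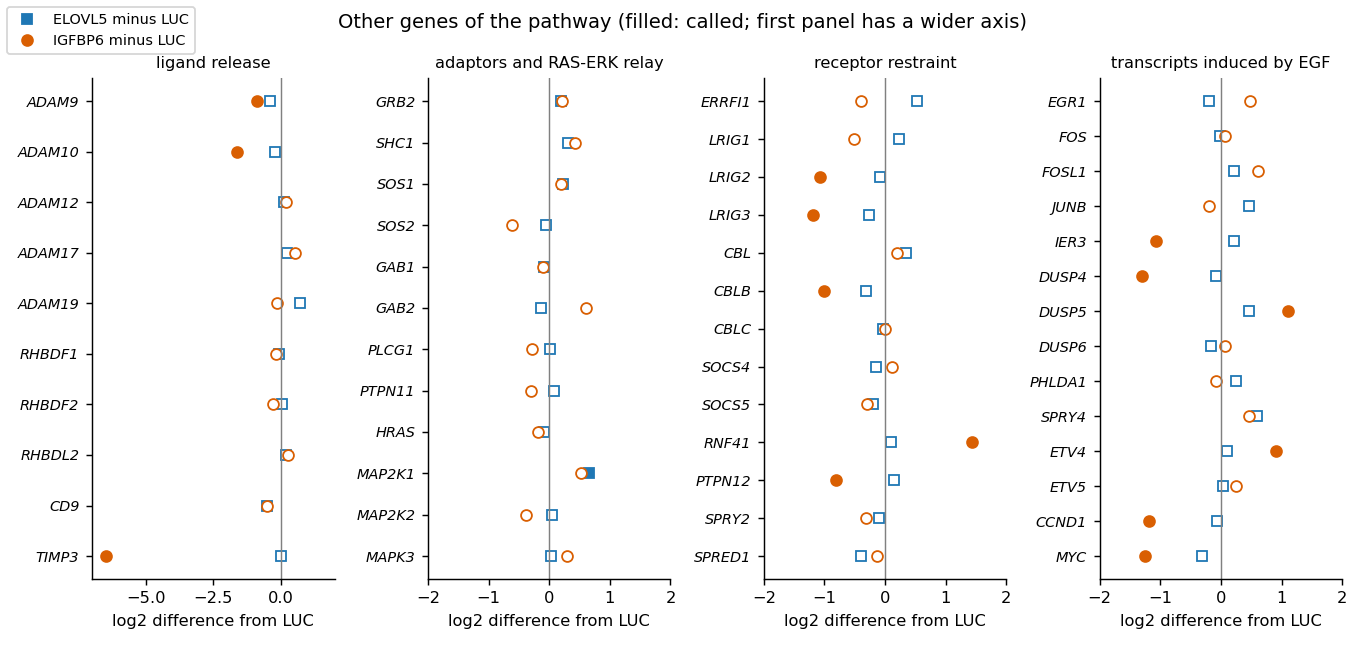
Differences from LUC on the log2 scale (horizontal axis, wider in the first panel) for the measured genes of 4 lists, in ELOVL5 (squares) and IGFBP6 (circles). Filled symbols were called. *MAP2K1* is the 1 filled square, and among the filled circles *TIMP3* is the farthest from 0 (-6.50), with *RNF41*, *DUSP5* and *ETV4* on the right.

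The genes next to *EREG* were examined because the ligand genes *EPGN*, *EREG*, *AREG* and *BTC* lie on the same stretch of chromosome 4 as a group of chemokine genes. *AREG*, which lies between *EREG* and *BTC*, was not analysed here and is not among the genes counted. Of its 16 nearest measured protein-coding neighbours, 0 were called higher and 1 lower with *IGFBP6* knocked down, beside 7.82% and 8.49% of all genes. The 1 called lower was *CDKL2*, a protein kinase gene (-0.78, adjusted p = 0.000363). *MTHFD2L*, a mitochondrial folate enzyme gene 2 places from *EREG*, had the largest positive difference of the 16 (0.57, adjusted p = 0.00762), below 1.5 times. The chemokine genes *CXCL1*, *CXCL2*, *CXCL3* and *CXCL5* had differences of 0.31, 0.33, 0.23 and -0.08.

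**Figure D4:**
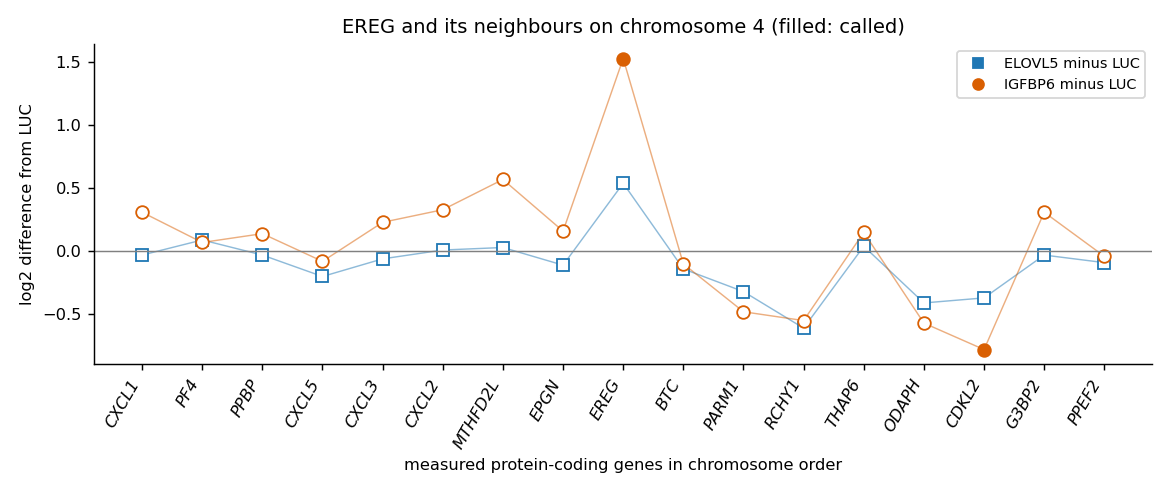
Differences from LUC on the log2 scale (vertical axis) of *EREG* and its 16 nearest measured protein-coding genes, placed in chromosome order, in ELOVL5 (squares) and IGFBP6 (circles). Filled symbols were called. *EREG* stands at 1.53 in IGFBP6, while *CDKL2* at -0.78 is the 1 other filled symbol.

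The 16 neighbours of each gene outside this stretch were counted in the same way with *IGFBP6* knocked down. Those called higher and lower numbered 4 and 0 near *ERBB3*, 4 and 0 near *NRG1* and 2 and 0 near *TGFA*. Near *HBEGF* they numbered 2 and 1 and near *EGFR* 0 and 1, all beside 7.82% and 8.49% of all genes. Counts this small were not tested against these shares. Of the 16 genes nearest to *ERBB3*, 4 rose with *IGFBP6* knocked down, beside 7.82% of all genes: *RNF41* (1.43), *MYL6B* (1.16), *RPL41* (0.83) and *DGKA* (0.72), of which *DGKA* was not called without LUC replicate 1, IGFBP6 replicate 2 or IGFBP6 replicate 3 (adjusted p = 0.0719, 0.0797 and 0.0664). Near *EGFR*, *GRB10*, which encodes an adaptor that binds receptor tyrosine kinases, fell by 1.28 on the log2 scale (adjusted p = 1.93e-05), opposite to *EGFR* itself. Near *TGFA*, which fell, *FAM136A* rose by 0.96 on the log2 scale (adjusted p = 7.95e-05). Near *NRG1*, which also fell, *UBXN8* rose by 1.53 and *MAK16* by 1.18 on this scale (adjusted p = 1.52e-05 and 0.000365). Near *HBEGF*, *TMCO6* rose by 1.45 on the log2 scale (adjusted p = 3e-05) and *STING1*, a sensor of the innate immune response, by 0.85 (adjusted p = 0.000654). *STING1* was also called after the knockdown of *ELOVL5* (0.61, adjusted p = 0.0467), but not without any one of the LUC or ELOVL5 arrays or without IGFBP6 replicate 3. Another 4 neighbours were called in IGFBP6 minus LUC but not with some single arrays left out. These were *GSR* near *NRG1* (0.63, lost without LUC replicate 3, IGFBP6 replicate 2 or IGFBP6 replicate 3, where it was 0.55 to 0.56) and *WRN* (0.67, lost without LUC replicate 1, IGFBP6 replicate 2 or IGFBP6 replicate 3, 0.53 to 0.60). *MXD1* near *TGFA* (0.59) was lost without LUC replicate 2, LUC replicate 3 or IGFBP6 replicate 2 (0.49 to 0.58), and *IGIP* near *HBEGF* (-0.81) without LUC replicate 2, LUC replicate 3 or IGFBP6 replicate 1 (-0.81 to -0.58).

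The genes whose pattern over the 9 arrays was most like those of *TGFA* and *EREG*, the 2 with the widest range of group means, were found by Pearson's r among 10846 genes with a mean of at least 6. For *TGFA* they were *HIVEP3* (r = 0.994), *NDRG3* (0.994) and *AFAP1L2* (0.993). *AFAP1L2* measured 7.16, 7.38 and 6.92 in LUC, 7.18, 7.31 and 7.25 in ELOVL5 and 5.27, 4.78 and 5.10 in IGFBP6 arrays. For *EREG* they were *KCTD5* (r = 0.995), *MAX* (0.994) and *MEN1* (0.991). *MAX*, the partner of MYC, measured 7.03, 6.84 and 6.93 in LUC, 7.16, 7.21 and 7.16 in ELOVL5 and 7.56, 7.71 and 7.59 in IGFBP6 arrays. The 9 arrays fall into 3 groups, so these values describe mainly the order of the groups.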

How the data were processed

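The study hybridised 3 RNA samples per culture to Affymetrix Human Transcriptome Array 2.0 arrays. The authors processed them with the RMA algorithm in Transcriptome Analysis Console (version 4.0.0.25 per the labels) and deposited log2 intensities for 67528 transcript clusters, which were used as they stand. Genes were named from the platform annotation: 23781 clusters had 1 symbol, 1543 several and 42204 none. No column belonged to another series.

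The 9 arrays were fitted with limma 3.58.1 (lmFit and eBayes, R 4.3.3), without covariates, with Benjamini-Hochberg adjustment over all clusters. The design used the thresholds of the study, with a moderated test in place of its ANOVA. With 3 against 3 arrays an exact permutation test cannot go below p = 0.1, so none was run. The number of arrays limits the precision. The fit was tested on simulated data. Alternatives covered the variance model, normalization, array weights, a filter on dim clusters, the thresholds, the replicate block and leaving out each array. Named were all members, called genes of each list, called neighbours and the 3 genes most like 2 members. The members and gene lists were chosen with earlier results of these data known. Promoters came from RefSeq (GRCh38.p14) and were used for 8 of the 10 genes, all but *ERBB3* and *NRG1*. No member promoter on chromosome 8, where *NRG1* lies, was taken.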

Additional observations from a re-analysis of the deposited data

How the results depend on the processing

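Of 498 values of the 24 member differences under the alternatives, 484 kept their direction and their side of the threshold, 8 changed sign, 4 fell below the threshold and 2 passed it (*HBEGF* in ELOVL5 minus LUC and *ERBB3* in IGFBP6 minus LUC at the adjusted p alone), and 15 of the 24 did so under every alternative run. Those that changed sign were all small. *EGFR* in ELOVL5 minus LUC ranged from -0.14 to 0.02, the latter without ELOVL5 replicate 2. *HBEGF* in IGFBP6 minus LUC ranged from -0.17 to 0.35 when 1 array was left out (-0.14 without LUC replicate 1, -0.17 without LUC replicate 2, -0.09 without IGFBP6 replicate 2 and -0.05 without IGFBP6 replicate 3). *BTC* in IGFBP6 minus ELOVL5 ranged from -0.02 to 0.15 and was -0.02 with array weights, -0.02 without ELOVL5 replicate 1 and -0.01 without ELOVL5 replicate 2. The cause was not tested. With 1 array left out, 0 to 1 of the members were called for ELOVL5 minus LUC (*HBEGF*, without LUC replicate 3), and 4 in each comparison with IGFBP6.

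Over all genes, 306 were called for ELOVL5 minus LUC, 94 with an ordinary variance per cluster, 114 at 2 times and 138 to 345 with 1 array left out. For IGFBP6 minus LUC the 3665 called genes became 5986 at the adjusted p alone, 1534 at 2 times and 3508 to 3743 with 1 array left out, and for IGFBP6 minus ELOVL5 the 2952 became 5109, 1066 and 2715 to 3098. At 2 times, 1 member (*TGFA*) was called in IGFBP6 minus ELOVL5, since *EGFR*, *EREG* and *NRG1* lie below it there, as does *EGFR* against LUC. The changes at 2 times or at the adjusted p alone follow from those thresholds, and the cause of the others was not tested.

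The arrays share replicate numbers, but not every pair of same-numbered arrays deviated together (correlations of deviations from -0.056 to 0.333) and not every array correlated best with its own number, so the numbers were not taken as pairs. With the number as a replicate block, 0, 4 and 4 members and 321, 3682 and 2997 genes were called in the 3 comparisons, and it changed no call of a member. It called 2 of the 12 adaptors in IGFBP6 minus LUC and 1 in IGFBP6 minus ELOVL5, against 0 and 0 (*SOS2* and *GAB2*, and *GAB2*), and the second *NRG1* cluster between the knockdowns (adjusted p = 0.0335). *BTC* and *EPGN* have no value under the filter on dim clusters, which removed them, and signal close to background limits both.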
